A study of Homo sapiens with 10 samples.

Results

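Hub promoters are taken here as baited HindIII restriction fragments with 30 or more different other fragments among their interaction calls. The data were Promoter Capture Hi-C (PCHi-C) calls and RNA-seq counts of H9 human embryonic stem cells (ESCs) and of neuroectodermal cells (NECs) derived from that line over 7 days of differentiation. Hubs were selected on the merged calls of either cell type. There were 392 of them, 1.80% of the 21833 baits in the lists. In ESCs 275 baits reached 30 contacts and in NECs 260 did, 143 of them in both. The merged lists combined 2 biological replicates of each cell type, ESC replicate 2 being itself a combination of sequenced libraries, and RNA-seq had 2 biological replicates of each cell type as well. All samples trace to 1 cell line. Because the contact numbers chose the members, contact numbers are described below without a test, and tests are confined to RNA-seq, which played no part in the choice.

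In PCHi-C, chromatin is crosslinked, cut with HindIII and ligated, and ligation products that contain a promoter are pulled down with complementary RNA baits, so that each promoter fragment is read out with the fragments that lay near it in the nucleus. The other fragments, called promoter-interacting regions (PIRs), can hold enhancers, silenced Polycomb-bound chromatin, insulators bound by CTCF or other promoters. Replication-dependent histone genes lie in clusters and are expressed in a nuclear compartment called the histone locus body, and HOX genes encode homeodomain transcription factors that pattern the body axis and are silenced by Polycomb in ESCs. CHiCAGO, the caller used by the authors, scores each fragment pair against the background for its distance, and calls had scores of 12 or more. The lists carry no read counts, so the depth behind a score is unknown.

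Sequence is printed first for the fragments with the largest contact numbers and for promoters that recur below. The ends of 3 hub fragments on the forward strand of GRCh37 are given because the fragment, not the gene, is the unit that was counted, and the capitals mark the HindIII site, printed whole at both ends. The fragment of PPYR1, a receptor gene for pancreatic polypeptide, spans chr10:47081572-47089303 and had the most contacts in ESCs. The fragment at chr16:70899701-70905382 holds the starts of annotated transcripts of HYDIN and SNORD112. The fragment at chr6:27113447-27115524 holds the starts of the histone genes HIST1H2BK and HIST1H2AH and had the most contacts in NECs.
PPYR1 fragment, first bases: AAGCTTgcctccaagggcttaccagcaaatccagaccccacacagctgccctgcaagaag
PPYR1 fragment, last bases: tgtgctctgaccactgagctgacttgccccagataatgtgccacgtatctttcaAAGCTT
HYDIN/SNORD112 fragment, first bases: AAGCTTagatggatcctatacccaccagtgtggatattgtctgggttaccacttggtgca
HYDIN/SNORD112 fragment, last bases: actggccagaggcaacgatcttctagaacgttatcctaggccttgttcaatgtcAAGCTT
HIST1H2BK/HIST1H2AH fragment, first bases: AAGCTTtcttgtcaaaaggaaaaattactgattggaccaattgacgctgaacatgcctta
HIST1H2BK/HIST1H2AH fragment, last bases: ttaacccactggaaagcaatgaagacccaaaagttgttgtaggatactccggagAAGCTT

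The 250 bases before a gene start are shown for 3 histone hub genes and for 2 developmental hub genes that had more merged contacts in NECs, each on the strand of its gene, in GRCh37. Capitals mark, on either strand, the TATA box letters TATAAA, the CCAAT box and the octamer known from histone H2B promoters, spelled ATTTGCAT. Marks can overlap, as where a TATA match and its reverse share bases, and the window of JAG1 holds no match. HIST1H2BK and HIST1H2AH are divergent, and 241 bases of their windows are the same DNA read on opposite strands, so 1 of them is printed. The windows are chr6:27114620-27114869 for HIST1H2BK, chr6:26056700-26056949 for HIST1H1C, chr6:26199522-26199771 for HIST1H3D, chr20:10654609-10654858 for JAG1 and chr6:99282330-99282579 for POU3F2.
HIST1H2BK: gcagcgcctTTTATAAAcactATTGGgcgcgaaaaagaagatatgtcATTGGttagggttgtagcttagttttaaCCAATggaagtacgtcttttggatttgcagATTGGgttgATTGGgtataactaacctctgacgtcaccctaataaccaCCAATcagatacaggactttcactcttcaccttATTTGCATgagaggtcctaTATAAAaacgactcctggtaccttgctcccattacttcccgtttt
HIST1H1C: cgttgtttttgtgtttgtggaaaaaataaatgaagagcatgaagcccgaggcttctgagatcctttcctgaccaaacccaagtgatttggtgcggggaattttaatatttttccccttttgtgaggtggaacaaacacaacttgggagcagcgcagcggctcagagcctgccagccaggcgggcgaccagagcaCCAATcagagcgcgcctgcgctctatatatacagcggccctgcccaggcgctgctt
HIST1H3D: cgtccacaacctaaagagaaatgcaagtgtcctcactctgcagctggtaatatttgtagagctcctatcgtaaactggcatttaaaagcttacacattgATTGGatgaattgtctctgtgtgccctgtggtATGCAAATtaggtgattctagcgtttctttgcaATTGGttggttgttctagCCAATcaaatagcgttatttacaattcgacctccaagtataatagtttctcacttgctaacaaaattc
JAG1: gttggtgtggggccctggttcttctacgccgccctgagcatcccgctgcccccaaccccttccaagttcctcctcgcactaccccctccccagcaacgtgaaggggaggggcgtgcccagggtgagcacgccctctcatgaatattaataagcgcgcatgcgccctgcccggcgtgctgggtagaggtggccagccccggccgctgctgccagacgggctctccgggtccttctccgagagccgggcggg
POU3F2: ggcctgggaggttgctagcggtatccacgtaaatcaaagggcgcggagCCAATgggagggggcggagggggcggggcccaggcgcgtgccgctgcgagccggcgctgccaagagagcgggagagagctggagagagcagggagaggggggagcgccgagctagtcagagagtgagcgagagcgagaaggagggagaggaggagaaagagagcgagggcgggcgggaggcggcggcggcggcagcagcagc

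CCAAT was present in the windows of 34 of 42 hub histone genes, TATAAA in 23 and the octamer in 17. Among the 10 hub H2B genes, CCAAT was present in 10, the octamer in 8 and TATAAA in 7. Over all 16951 protein-coding genes that start in a bait, the shares were 32.3% for CCAAT, 8.80% for TATAAA and 1.40% for the octamer. In the 301 protein-coding hub genes other than histone genes the shares were 31.9%, 4.32% and 1.33%, lower than over all baited genes for TATAAA and within 1 percentage point of them for the others. A match is a description of letters. The octamer was also found in 9 of the 32 hub histone genes other than H2B, the printed window of HIST1H3D among them. These 9 are not all separate from H2B windows. The window of the H2A gene HIST1H2AH holds 1 octamer and shares 241 bases with that of HIST1H2BK. Overlaps of other windows with those of H2B genes are not given here.

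The hubs made 13219 of 99302 calls in ESCs (13.3%) and 12914 of 99181 in NECs (13.02%). Over the 392 hubs the contact number ranged from 3 to 119 in ESCs and from 5 to 96 in NECs, with a median of 33 in both. Hubs were selected on merged numbers, and the medians in single lists were lower, though not at every hub: DHX32/FANK1 had 87 and 87 contacts in the single ESC lists and 51 in the merged one. The median hub had 20 contacts in ESC replicate 1, 16 in ESC replicate 2, 20.5 in NEC replicate 1 and 13.5 in NEC replicate 2. In these lists, 151 of the 392 hubs reached 30 contacts in at least 1 replicate and 18 did so in all 4, of which 15 were histone gene hubs. NEC replicate 2 had the fewest calls in all, 81168, against 86429 to 100305 in the other 3.

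The threshold cut through a continuous range. The 34 hubs whose higher merged number was exactly 30 had 1 to 29 contacts in ESC replicate 1, with a median of 18, and 2 to 25 in NEC replicate 2, with a median of 8. The 46 baits whose higher number was 29 had 7 to 34 and 1 to 37, with medians of 17 and 11. Just inside lay CREBBP, which encodes a histone acetyltransferase, with 30 merged contacts in ESCs and 9 in NECs but only 3 and 2 in the single ESC lists, and HOXC4 with 30 and 27.

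**Figure D1:**
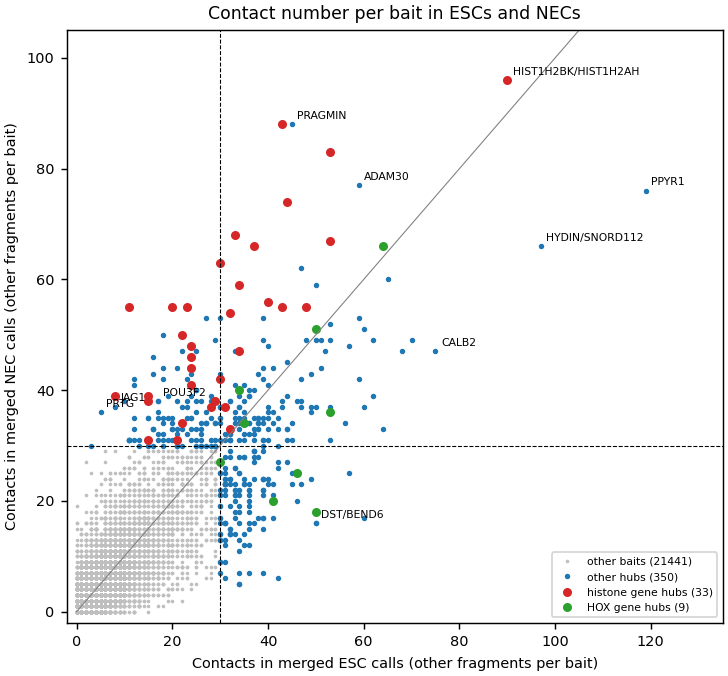
Number of contacts of each bait in the merged ESC calls (horizontal axis) and the merged NEC calls (vertical axis); each point is 1 bait, dashed lines mark 30 contacts and the grey diagonal marks equal numbers. All 33 histone gene hubs (red) lie above the diagonal, and PPYR1 is farthest to the right with 119 contacts in ESCs.

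The contacts of hubs lay in longer runs of neighbouring fragments than those of other baits, and in more runs. When other fragments within 10 kb were joined, the median hub had 9 runs in ESCs and 9 in NECs. The median other bait had 3 runs in ESCs and 3 in NECs. Hubs had 3.80 and 3.64 fragments per run, and other baits had 1.54 and 1.52. Only the HYDIN/SNORD112 fragment then kept 30 or more, with 33 runs in ESCs. The median distance from bait to PIR was 196 kb for hubs and 197 kb for other baits in ESCs, and 225 kb and 216 kb in NECs. The median hub covered 697 kb from its first to its last cis contact in ESCs and 735 kb in NECs. All cis contacts lay on 1 side of the bait at 60 hubs in ESCs and at 64 in NECs, among them FGF18, RSPO3 and the bait of CRNDE and IRX5 in both.

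Hub contacts were more often seen in both cell types than those of other baits. Of the hub calls in ESCs, 58.6% were also called in NECs, against 42.0% for other baits, and of those in NECs 60.03% were also called in ESCs, against 41.9%. Scores were higher too, with medians of 14.28 against 13.39 in ESCs and 14.48 against 13.46 in NECs. Within calls scoring 13 to 15 the shared percentage was 51.8% for hubs and 40.1% for other baits in ESCs. The share called in both replicates was in the same class 8.45% for hubs and 14.2% for other baits. It was lower for hubs in each score class in ESCs, with 94.2% against 94.4% at scores over 20. In NECs hubs were higher at scores over 20 only, at 87.7% against 86.1%. Over all scores the share in ESCs was 28.2% for hubs and 22.1% for other baits, and 25.6% for hubs without histone genes. Pooled over both cell types, the 26133 hub calls had a median distance of 210 kb, 59.3% were shared and 27.86% were called in both replicates.

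A smaller share of the contacts of hubs than of other baits was with another bait, 13.9% against 34.4% in ESCs and 16.5% against 33.8% in NECs. The histone gene hubs went the other way, at 60.9% in ESCs and 54.1% in NECs. Without them the hub shares were 9.95% and 10.7%. These are shares of contacts and not numbers of promoters reached per bait. The median hub had 33 contacts in each cell type and the median other bait 3. The lists give a contact between a pair of baits from the end at which it was called.

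In sequence the hub fragments were close to other baits in length and slightly richer in GC. Their median length was 6984 bp (range 792 to 27098 bp), against 6786 bp, and their median GC content was 49.4% against 46.8%. The ratio of observed to expected CpG was 0.41 against 0.34. The letters CCACNAGGG, part of the motif bound by the insulator protein CTCF, were found on either strand in 26.28% of hub fragments and in 22.9% of others, and in 15.2% of histone gene hubs. The median hub had 21 gene starts within 500 kb and the median other bait 16, and histone gene hubs had 48.

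By chromosome, 48 hubs lay on chromosome 6, 44 on chromosome 1 and 33 on chromosome 2. Joined over gaps of up to 250 kb, the hubs formed 252 loci, of which 190 held 1 hub and 26 held 3 or more. The loci with most hubs were histone genes (18 hubs), a second locus of histone genes and a transfer RNA gene (11 hubs), the HOXC cluster (7 hubs, 1 of them at MIR615) and a gene-dense stretch from GAPDH to C12orf57 on chromosome 12 (7 hubs). The hubs held the starts of 451 genes of the count table, 321 of them protein-coding. In 46 hubs no such gene started, and 44 of these held an annotated transcript start.

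The largest contact numbers belonged to a mixed set of genes. The PPYR1 bait had 112 and 76 contacts in the single ESC lists against 94 and 31 in those of NECs, and 119 and 76 in the merged ESC and NEC calls. The groups overlapped, since NEC replicate 1 was above ESC replicate 2. PPYR1 itself had 3, 2, 2 and 0 reads in the 4 RNA libraries, so that this hub was at a gene with next to no transcript in either cell type.

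CALB2, which encodes the calcium-binding protein calretinin, had 57 and 31 contacts in ESCs and 36 and 13 in NECs. Its top-scoring PIR in both cell types was the same fragment, chr16:71031669-71035104 in an intron of HYDIN, 356 kb away, with scores of 39.15 and 40.69. Hubs of a locus of 381 kb on chromosome 2 were also among the largest, the bait of the noncoding gene AC104134.2 with 70 merged contacts in ESCs and 49 in NECs, and that of RNU6-1007P, a small nuclear RNA pseudogene, with 65 and 60. The AC104134.2 bait was itself the top-scoring PIR of RNU6-1007P in ESCs, 129 kb away. At AC104134.2 the single ESC replicates had 14 and 32 contacts and the NEC replicates 40 and 14, so its order between cell types turned on the list used. RP11-481C4.1 on chromosome 17 had 52 and 31 contacts in ESCs and 17 and 18 in NECs, and no read in any RNA library.

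CCAR1, an apoptosis and cell cycle regulator, held 2 hub baits. The larger, CCAR1/MIR1254-1, had 64 merged contacts in ESCs and 33 in NECs, with 40 and 28 against 14 and 12 by replicate. The other, CCAR1/SNORD98, had 46 and 20 merged contacts. At CCAR1/MIR1254-1 the ESC replicates lay above the NEC replicates.

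In NECs, the largest numbers after HIST1H2BK/HIST1H2AH were 88 at HIST1H3D/HIST1H2AD and 88 at PRAGMIN, which encodes a pseudokinase. PRAGMIN had 15 and 13 contacts in the single ESC lists against 40 and 28 in those of NECs, without overlap. Its top-scoring PIR was the same in both cell types, 281 kb from the bait, with a score of 25.22 in ESCs and 40.60 in NECs. PRAGMIN was expressed at 56.4 and 54.8 CPM (counts scaled to a common library size) in ESCs and 51.6 and 65.1 CPM in NECs, a log2 difference of 0.07 with an SE of 0.13 (edgeR quasi-likelihood test, adjusted p = 0.646).

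**Figure D2:**
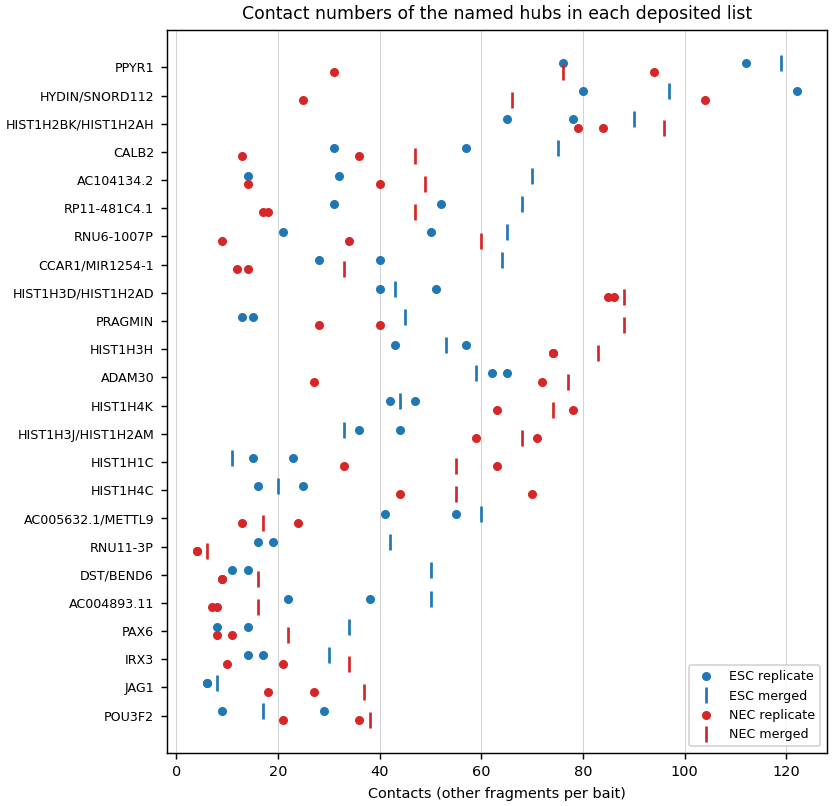
Contact numbers of the named hubs in each deposited list; dots are the 2 replicates of each cell type (ESC blue, NEC red) and vertical ticks the merged calls. Merged numbers exceed both replicates at DST/BEND6, where the ESC replicates had 14 and 11 contacts and the merged calls 50.

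The hubs with the largest excess of merged contacts in ESCs were the METTL9 bait (60 in ESCs, 17 in NECs), PPYR1, the bait of the RNU11-3P transcript (42 and 6), the shared promoter fragment of DST and BEND6 (50 and 16) and AC004893.11 (50 and 16). The METTL9 bait had 55 and 41 contacts in the single ESC lists against 24 and 13 in those of NECs. It belonged to a locus of 3 hubs over 58.1 kb of chromosome 16 in which the ESC numbers lay above the NEC numbers at each hub. METTL9, a histidine methyltransferase gene, was expressed at 113 and 108 CPM in ESCs and at 145 and 138 CPM in NECs, a log2 difference of 0.35 (SE 0.08, edgeR adjusted p = 0.0112) below the threshold of 1.5 used for calls. DST, which encodes a cytoskeletal linker protein, had 380 and 304 CPM in ESCs and 139 and 162 CPM in NECs, a log2 difference of -1.18 (SE 0.14, edgeR adjusted p = 6.67e-04), also short of that threshold.

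At all 5 hubs of the CCNB1 locus on chromosome 5, which holds the genes for cyclin B1, the centromere protein CENPH and the kinase CDK7, merged contacts were more numerous in ESCs (30 to 49) than in NECs (9 to 30). At CDK7 there were 34 and 25 contacts in ESCs and 18 and 17 in NECs by replicate. At CENPH the replicates overlapped, with 40 and 14 against 20 and 17.

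Across all hubs, 179 had more merged contacts in NECs, 208 had fewer and 5 had equal numbers. Both NEC replicates lay above both ESC replicates at 89 hubs and both ESC replicates above both NEC replicates at 111. Among all 21768 baits with a contact in a replicate list these classes held 13.2% and 12.9%, and among the 685 baits whose higher merged number was 20 to 29 they held 22.5% and 21.5%. Since hubs were chosen from the same calls, the numbers are given as a description. After division by the number of calls in each list, an alternative added after seeing the data, the numbers were 95 (24.2%) and 130 (33.2%). On that measure the classes held 18.2% and 17.9% of all 21833 baits. They held 27.2% and 23.8% of the 685 baits whose higher merged number was 20 to 29.

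The histone genes were the family with most members among hubs. Of 64 genes with histone symbols that start in a bait, 42 started in a hub, a grouping made after the hubs were seen. These 42 genes lay in 33 hubs, 31 of them on chromosome 6 in 3 segments of the histone cluster 1 region between 26026145 and 27864923, and 2 on chromosome 1. Both NEC replicates exceeded both ESC replicates at 29 of the 31 hubs on chromosome 6, and at 26 after division by list size. HIST1H4F and HIST1H4H, both H4 genes, were the exceptions in the undivided numbers.

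Over the 31 hubs, ESC replicate 1 had 8 to 78 contacts with a median of 31, and ESC replicate 2 had 13 to 65 with a median of 31. NEC replicate 1 had 19 to 85 with a median of 44, and NEC replicate 2 had 38 to 86 with a median of 56. NEC replicate 2 exceeded NEC replicate 1 at 28 of the 31 although its list was the shortest, and over all 392 hubs it did so at 97.

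HIST1H1C, which encodes a linker histone, had 15 and 23 contacts in ESCs and 33 and 63 in NECs, with merged numbers of 11 and 55. HIST1H4C, a core histone H4 gene, had 20 merged contacts in ESCs and 55 in NECs, with 16 and 25 against 44 and 70 by replicate. HIST1H3D/HIST1H2AD had 51 and 40 contacts in ESCs and 85 and 86 in NECs. HIST1H3J/HIST1H2AM, whose bait holds the starts of an H3 and an H2A gene, had 33 and 68 merged contacts, with 44 and 36 against 59 and 71 by replicate. HIST1H2BK/HIST1H2AH had similar numbers in both cell types, 90 and 96 merged, with 78 and 65 in ESCs and 79 and 84 in NECs. Its fragment was the top-scoring PIR of HIST1H4K in both cell types, at 682 kb and with scores of 40.64 and 40.37. On chromosome 1, HIST2H2AA3 had 21 and 16 contacts in ESCs and 32 and 40 in NECs, and HIST2H2BE had 23 and 14 against 50 and 43.

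These hubs were often each other's partners, another hub being the PIR in 56.8% of the calls of histone gene hubs in ESCs and in 48.5% in NECs. Of the 465 pairs among the 31 hubs, 308 and 328 were called by replicate in ESCs against 372 and 430 in NECs, and 341 and 439 in the merged ESC and NEC calls. Of the 195 pairs over 1 Mb apart, 140 and 141 were called in ESCs and 185 and 194 in NECs. The groups did not overlap in either count. Among the 201 pairs within a segment they did, with 111 and 130 called in ESCs and 122 and 167 in NECs. Fragments contacted by 10 or more hubs numbered 36 in ESCs and 60 in NECs, all on chromosome 6, and 28 and 34 of them held the start of a histone gene.

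**Figure D3:**
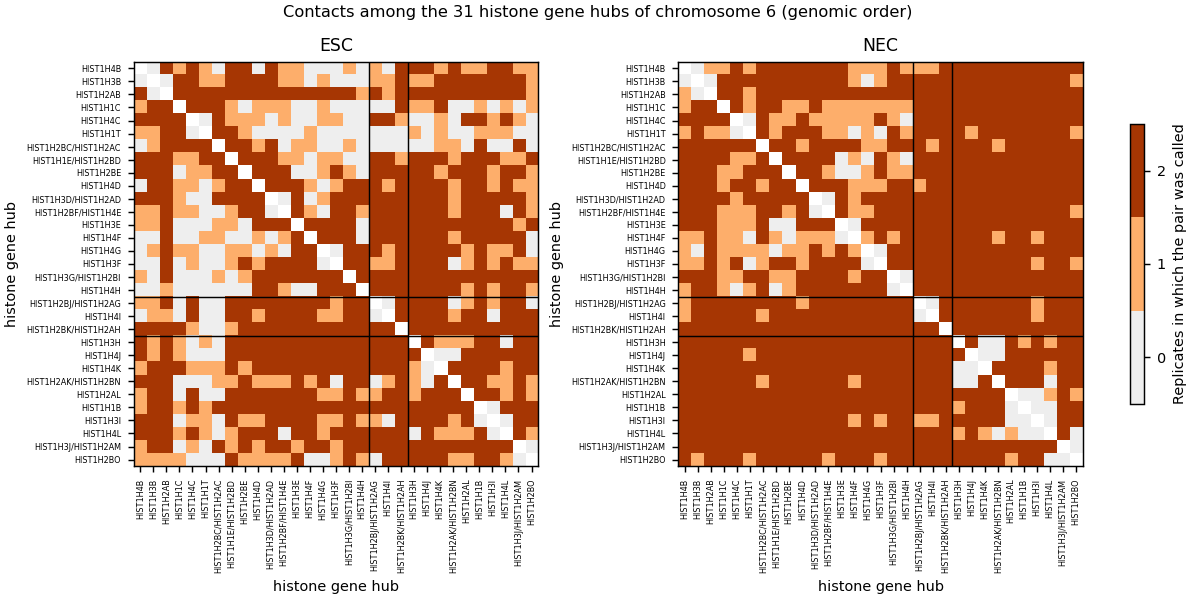
Contacts among the 31 histone gene hubs of chromosome 6 in genomic order, in ESCs (left) and NECs (right); colour gives in how many of the 2 replicates a pair was called and black lines part the 3 segments. Pairs from different segments were called in 197 and 198 of 264 cases in the ESC replicates and in 250 and 263 in the NEC replicates.

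Histone genes have near-identical copies. In 14 of the 31 fragments no 50-base window was found in another of them, the median share of such windows was 0.05% and the highest was 28.8% at HIST1H4J. Alignment of whole fragments found a copy of 1000 bp or more at 95% identity for 4 hubs in all, 1.02% against 1.03% of all baits, namely AGAP7, HYDIN/SNORD112, HIST2H2AA3 and PCDHB10. The part of shared sequence in the calls was not tested.

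Histone transcripts without a poly(A) tail are poorly captured by mRNA libraries, and reads from near-identical histone genes are uncertain in their assignment. Of the 42 hub histone genes, 20 passed the filter on low counts. HIST1H1E rose, with 2 and 2 reads in ESCs and 21 and 11 in NECs (a ratio of 7.58 with a counting interval of 2.69 to 29.5, the ratio being 4.86 without NEC replicate 1, edgeR adjusted p = 0.01), as did HIST2H2BE, with 43 and 54 against 199 and 132 reads (1.71, SE 0.32, edgeR adjusted p = 0.00419), and none fell past the threshold. HIST1H2BK, at the hub with most contacts in NECs, had 3.39 and 8.57 CPM in ESCs and 12.8 and 15.4 in NECs and was not called (1.22, SE 0.39, edgeR adjusted p = 0.0325), although without ESC replicate 2 its difference was 2.05 and past the threshold. The median log2 fold change of the 20 tested histone hub genes was -0.42, against 0.01 over all genes tested. Over the 27 tested histone genes of all baits it was -0.35, with 2 higher and 1 lower.

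HOX genes made a second family. Of 39 HOX genes that start in a bait, 11 started in 9 hubs, 6 in the HOXC cluster and 3 in the HOXB cluster. HOXC9 had 40 and 54 contacts in ESCs and 46 and 26 in NECs. HOXB3 had 18 and 23 in ESCs and 15 and 11 in NECs, with the ESC numbers above, as at HOXC12 (27 and 36 against 24 and 10). At the other 7 HOX hubs the replicates of the 2 cell types overlapped. HOXC9, HOXC8, HOXC10, HOXC11, HOXC12 and HOXC5 had no read in any RNA library, and each starts in a bait with 30 or more merged contacts in ESCs. Of the 11 hub HOX genes, 7 (63.6%) had 3 reads or fewer in every library, beside 28 of 39 (71.8%) over all baits.

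**Figure D4:**
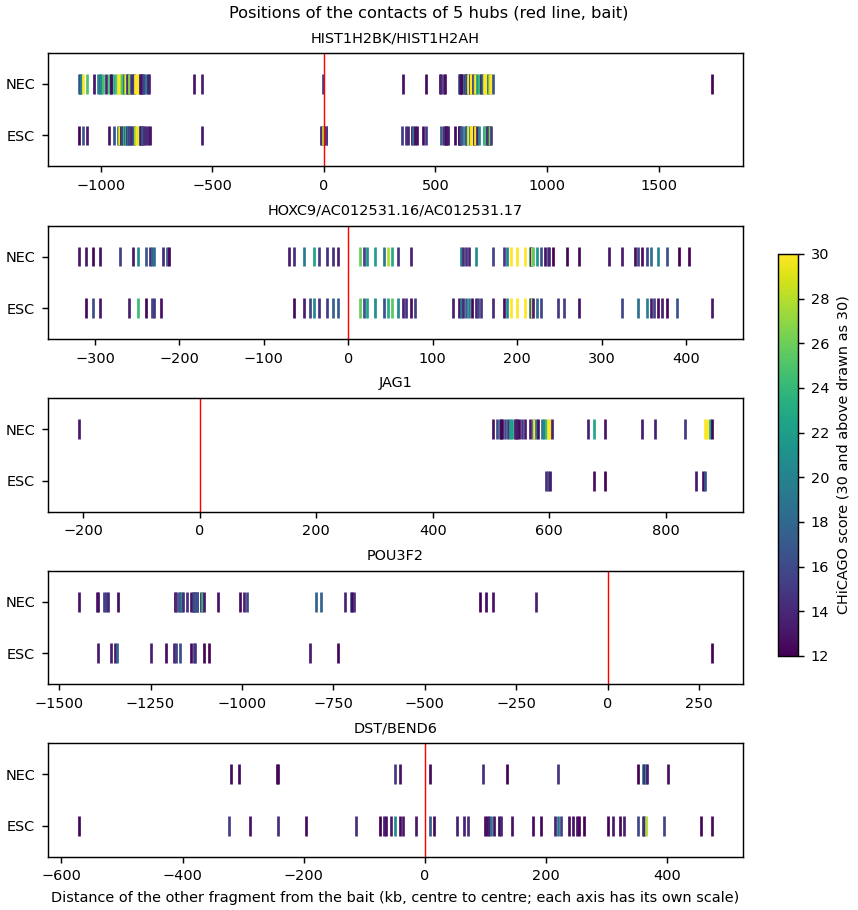
Positions of the cis contacts of 5 hubs in the merged ESC and NEC calls, as distance in kb from the centre of the bait (red line); colour gives the CHiCAGO score. Most contacts of HIST1H2BK/HIST1H2AH fall in a group of fragments on either side of the bait, and those of JAG1 lie on 1 side in both cell types except for a single NEC contact; scores of 30 and above share 1 colour.

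A few hubs reached far beyond their surroundings. Trans contacts, with another chromosome, were absent from 378 of the 392 hubs in ESCs and from 376 in NECs. The HYDIN/SNORD112, DHX32/FANK1 and RP3-368B9.1 hubs had 10 or more in each cell type and made 134 of the 338 trans calls of all baits in ESCs (39.6%) and 104 of 266 in NECs (39.1%). At HYDIN/SNORD112, 57 of 97 contacts in ESCs lay between 146311092 and 147731535 on chromosome 1, and 49 of 66 in NECs lay in nearly the same window. The score of its top contact was 74.41 in ESCs and 45.46 in NECs. The whole of this fragment aligned to the contig GL000192.1 at 99.3% identity. Each of its 60 trans contacts in ESCs lay within 1 Mb of an assembly gap of at least 10 kb.

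ADAM30, a testis-expressed metalloproteinase gene next to the centromere of chromosome 1, had a median contact distance of 24565 kb in ESCs. Of its 59 contacts in ESCs, 50 lay between 144837273 and 145118548, and the replicates had 65 and 62 contacts in ESCs and 72 and 27 in NECs. All 50 lay within 1 Mb of an assembly gap, as did the 72 contacts of PPYR1 beyond 1 Mb, while none of the 26 distant contacts of ERO1L in ESCs and none of the 52 of METTL9 did. Over all baits 11.7% lay within 1 Mb of a gap, and over hubs 13.5%. The part of the assembly in these contacts was not tested.

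RNA-seq compared the 2 cell types over 17564 genes that passed the filter on low counts, with library totals of 19234087 to 25356382 reads. The pluripotency markers chosen as a check were lower in NECs for 9 of 10 genes and the neuroectoderm markers higher for 10 of 10. Neural crest markers were higher for 7 of 10, with a summed level of 24.8 and 24.0 CPM in ESCs and of 211 and 79.1 CPM in the 2 NEC replicates, and in ESCs only TFAP2B of that list had no read. Mesendoderm markers were lower for 9 of 10, with summed levels of 246 and 439 CPM in ESCs and 22.8 and 29.3 CPM in NECs. Of 10 markers of postmitotic neurons 4 were higher, and of 10 of trophoblast and non-neural ectoderm 1 was lower. What part cells of these types have in the differences below was not tested. In cultures of mixed cells, fewer cells of a type and less RNA per cell cannot be told apart, and the ESC and NEC libraries were run in different lanes, so that lane and cell type cannot be told apart either.

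Of the 451 hub genes, 325 passed the filter. Among these 58 rose from ESCs to NECs (17.8%, by an adjusted p under 0.05 together with a log2 difference over 1.5), beside 11.4% of all genes tested, and 22 fell (6.77%), beside 9.68% of all genes tested. Among the 15318 tested genes that start in any bait the shares were 11.0% and 8.74%. Without histone genes, an alternative chosen after seeing the data, the hub counts were 56 and 22 of 305. The median log2 fold change over tested hub genes was 0.14, against 0.02 over tested genes of all baits. The counts passed through a filter that keeps a gene high in 1 cell type, and no test was made of the list.

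The level of protein-coding hub genes was above that of all baited protein-coding genes at the median, more so in NECs. Their median was 3.12 CPM per kb of exon in ESCs and 4.89 in NECs, beside 2.52 and 2.80 for all 16951 protein-coding genes that start in a bait. In 30 of the 321, or 9.35%, both libraries of both cell types had 3 reads or fewer, against 13.5% of all baited protein-coding genes.

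Homeobox transcription factors were frequent among hub genes. Of 189 such genes that start in a bait, 23 (12.2%) started in a hub, and they were 5.10% of hub genes and 0.85% of all baited genes. Of these 23, 13 were tested, 8 rose and 1 fell, and 8 had 3 reads or fewer in every library. Over all baits 56 of 106 tested homeobox genes rose and 16 fell.

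POU3F2, a POU-domain factor of neural progenitors, had 0.48 and 0.20 CPM in ESCs and 124 and 104 in NECs (edgeR adjusted p = 1.03e-05, log2 difference 8.44 with an SE of 0.25). Its bait had 29 and 9 contacts in ESCs and 36 and 21 in NECs, which overlap. PAX6, a paired-type factor of the neural plate and eye, rose by 5.67 (SE 0.33, adjusted p = 5.39e-05), from 1.64 and 1.13 to 86.4 and 52.8 CPM, while its contacts were 14 and 8 in ESCs and 8 and 11 in NECs. The merged contact number of PAX6 was 34 in ESCs and 22 in NECs, so that it met the rule through ESCs, where it had 31 and 28 reads.

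LHX5, a LIM homeobox gene of the forebrain, had 5 and 0 reads in ESCs and 495 and 440 in NECs (7.40, SE 0.57, adjusted p = 1.40e-04). The size of this difference rests on the 5 reads of ESC replicate 1, since it was 11.91 without that library and 6.24 without ESC replicate 2. HOXB3 had no read in ESCs and 230 and 124 in NECs, at least 56.3-fold higher with 3 reads per library as the floor (adjusted p = 6.28e-04) and at least 35.9-fold without NEC replicate 1. EN2, a gene of the midbrain-hindbrain boundary, had none in ESCs and 124 and 25 in NECs, at least 24.3-fold higher (adjusted p = 0.00862), a bound of 7.23-fold without NEC replicate 1 and 41.4-fold without NEC replicate 2. HOXC4 went from 0 and 1 reads to 34 and 21, a ratio of 52.1 with an exact 95% counting interval of 8.97 to 2094, and the ratio was 29.5 without ESC replicate 1.

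IRX3 and IRX5, neighbouring Iroquois genes of the neural plate, both rose, by 5.54 (SE 0.30, adjusted p = 4.28e-05) and 3.32 (SE 0.30, adjusted p = 2.37e-04). IRX3 had 17 and 14 contacts in ESCs and 10 and 21 in NECs, and IRX5 had 13 and 17 against 23 and 19. The IRX5 bait was the top-scoring PIR of the IRX3 bait in NECs, 644 kb away with a score of 40.30, and the fragment next to it was so in ESCs, with a score of 40.60. CRNDE, a noncoding gene that starts in the IRX5 bait, rose as well, from 98 and 91 reads to 512 and 456.

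LHX1, a LIM homeobox gene, was the one that fell, from 26 and 66 reads to 10 and 15 (adjusted p = 0.00957, log2 difference -1.91 with an SE of 0.44), and without ESC replicate 2 its difference was -1.35 and no longer past the threshold. The other tested members were not called, among them NKX6-1 with 127 and 161 reads in ESCs and 173 and 187 in NECs.

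Secreted signals were 4 of the hub genes, and 2 rose and 1 fell, beside 32 of 94 tested genes of that list higher and 16 lower over all baits. JAG1, a Notch ligand, had 45.8 and 36.5 CPM in ESCs and 167 and 176 in NECs (2.06, SE 0.13, adjusted p = 6.76e-05). Its contacts numbered 6 and 6 in ESCs and 27 and 18 in NECs, without overlap, and the top-scoring PIR in NECs lay 598 kb away with a score of 38.74, against 16.08 for that fragment in ESCs. RSPO3, an activator of Wnt signalling, had 0 and 1 reads in ESCs and 346 and 87 in NECs, a ratio of 410 with an exact counting interval of 73.2 to 16234 (adjusted p = 0.00185), and 18 and 14 contacts against 30 and 21. That ratio was 154 without NEC replicate 1, 706 without NEC replicate 2 and 233 without ESC replicate 1. FGF18, a fibroblast growth factor, fell from 48 and 80 reads to 15 and 12 (log2 difference -2.29, SE 0.34, adjusted p = 0.00172). The inhibitor of activins FST had 3598 and 5642 reads in ESCs and 3592 and 7401 in NECs and was not called.

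Among 10 hub genes of other developmental transcription factor families, 6 were tested, FOXP2 and ZNF703 rose and HEY2, a target of Notch, fell, from 182 and 172 reads to 48 and 33. Over all baits 73 of 213 tested genes of these families were higher (34.3%) and 32 lower, near the hub shares. FOXP2 went from 6 and 8 reads to 45 and 38 and ZNF703 from 75 and 112 to 1900 and 977. Of 8 adhesion and axon guidance genes, 7 were tested and 3 rose, namely the ephrin receptor EPHB3, with 39 and 53 reads in ESCs and 894 and 1507 in NECs, and the protocadherins PCDHB10 and PCDHGA7. Over all baits 93 of 182 such genes rose (51.1%). Protocadherin genes share exons or resemble each other closely, which leaves their read counts uncertain. The 4 protocadherin hubs had 19 to 28 merged contacts in ESCs and 30 to 39 in NECs, and NEC replicates lay above ESC replicates at PCDHGA7 (11 and 9 against 14 and 18).

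Of 5 ion channel and receptor genes, 4 were tested and the calcium channel gene CACNA1G rose (3.20, SE 0.23, adjusted p = 1.10e-04), beside 49 of 181 (27.1%) over all baits. None of the 3 ribosomal protein genes in hubs was called, beside 17 of 76 higher over all baits. RPS26, with 1010 and 1126 reads in ESCs and 2063 and 2928 in NECs, was past the p threshold but not the fold threshold (log2 difference 1.12, SE 0.14). Of 91 hub genes with the symbols of long noncoding or antisense RNAs, 36 were tested, 5 rose and 3 fell, beside 200 and 183 of 1612 over all baits. No gene of the Polycomb complexes (0 of 29) and none of CTCF or cohesin (0 of 12) started in a hub, and with 451 of 22223 baited genes in hubs lists of this size are too short to read anything from that.

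The remaining genes named for the size of their difference were taken among those with an average log2 CPM of at least 1. RP11-357H14.12, a noncoding gene, went from 2 and 2 reads to 589 and 315, a ratio of 214 with a counting interval of 83.3 to 787, the ratio was 139 without NEC replicate 1, and it overlaps HOXB3, so that reads in the overlap cannot be parted. LIX1, expressed in the developing limb and brain, rose by 7.41 (SE 0.24, adjusted p = 1.27e-05), from 0.95 and 0.53 to 109 and 136 CPM, and had 8 and 4 contacts in ESCs and 20 and 14 in NECs. CALB2, at one of the largest ESC hubs, rose by 3.71 (SE 0.41, adjusted p = 5.15e-04), from 0.48 and 0.73 to 10.4 and 5.87 CPM, while its merged contacts were 75 in ESCs and 47 in NECs.

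Among genes at that level, the largest falls were at A2ML1, a protease inhibitor gene with 222 and 163 reads in ESCs and 2 and 7 in NECs (log2 difference -5.51, SE 0.52, adjusted p = 2.95e-04), and at DBC1, with 931 and 1315 against 19 and 51 (-5.08, SE 0.29, adjusted p = 4.98e-05). PHLDA1, a growth factor response gene, fell from 2709 and 2652 reads to 187 and 278 (-3.64, SE 0.19, adjusted p = 4.24e-05), C18orf1 from 274 and 342 to 29 and 43 (-3.18, SE 0.21, adjusted p = 9.10e-05) and CAPG, an actin-capping protein gene, from 617 and 951 to 61 and 137 (-3.07, SE 0.28, adjusted p = 2.73e-04). RP11-290L1.3 lies inside PHLDA1 and fell from 584 and 556 reads to 39 and 60, and their reads cannot be told apart by strand. DBC1 had 5 and 10 contacts in ESCs and 25 and 19 in NECs, more in the cell type in which its transcript was scarce, and A2ML1 had 23 and 21 against 7 and 10.

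Contact change and expression change were set side by side by hub class. At hubs whose NEC contact numbers lay above those in ESCs, 18 of 73 tested genes rose and 3 fell. Without histone genes 16 of 54 rose (29.6%) and 3 fell. At hubs whose ESC numbers lay above, 10 of 83 rose (12.05%) and 7 fell, and where they overlapped 30 of 169 rose (17.8%) and 12 fell. Over all baits the first class had 339 of 2240 genes higher (15.1%) and 153 lower, and the second 170 of 1911 higher (8.90%) and 215 lower. The overlapping class over all baits had 1172 of 11167 genes higher (10.5%) and 971 lower.

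Examples in the first class, chosen after their values were seen, were PRTG, FHOD3 and BCL2. PRTG, an immunoglobulin superfamily gene of the neural tube, had 329 and 258 reads in ESCs and 25476 and 29297 in NECs and 2 and 3 contacts against 20 and 15. FHOD3, a formin gene, had 354 and 355 reads against 2491 and 3496 and 1 and 4 contacts against 13 and 17. BCL2, the inhibitor of apoptosis, had 46 and 53 reads against 659 and 819, and 11 and 8 contacts against 28 and 30.

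Across the 305 tested hub genes other than histone genes, the difference in merged contacts and the log2 fold change had a Spearman rho of 0.19, and across all 325 of 0.13. Over 15318 tested genes of all baits rho was 0.09. These are descriptions across genes, which are not independent replicates, and genes of 1 hub share its contact number.

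**Figure D5:**
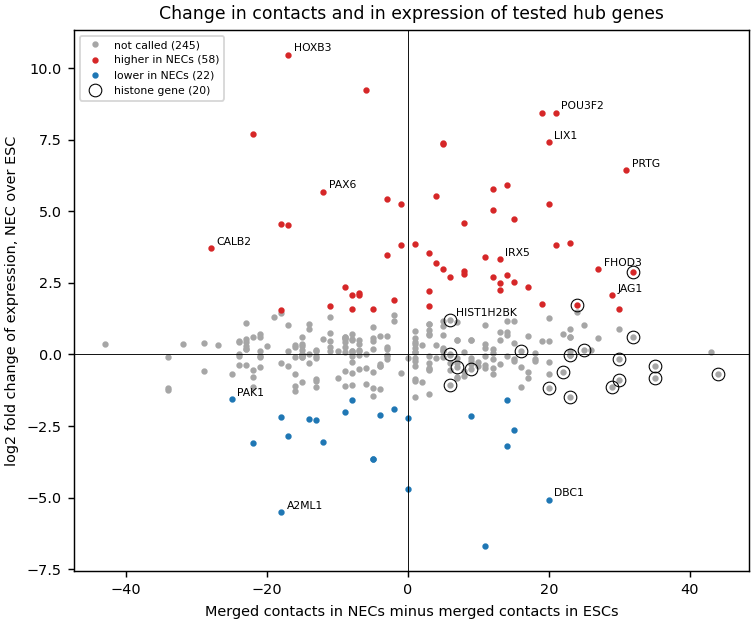
Difference in merged contacts between NECs and ESCs (horizontal axis) and log2 fold change of expression (vertical axis) for the 325 tested hub genes; red genes rose, blue genes fell, grey genes were not called and rings mark histone genes. Of the genes called higher, 58 in all, PRTG, LIX1 and POU3F2 lie to the right and CALB2, PAX6 and HOXB3 to the left.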

How the data were processed

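PCHi-C read pairs were mapped to GRCh37 by the authors with HiCUP, and fragment pairs were scored with CHiCAGO. The authors deposited the calls of each replicate and of both replicates combined as a score, a weighted p-value on a negative log scale, and interactions at a score of 12 or more are listed. Hi-C libraries were not used here. The deposited RNA-seq counts are raw reads per Ensembl gene, which the authors obtained after mapping with TopHat, without regard to strand.

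Here the contacts of a bait were counted as different other fragments on its own lines, and hubs were baits with 30 or more in either merged list. Genes were assigned to the bait that holds their start. A HindIII site was found at both ends of all 21833 baits. Members and gene lists were chosen with earlier results of these data known, and histone and HOX groupings after the hubs were seen. Named were the 8 hubs with most contacts per cell type, the 5 largest gains and losses, from called genes at an average log2 CPM of 1 or more the 6 highest and 6 lowest fold changes, then called homeobox genes and hub genes the study names.

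Counts were tested with edgeR 4.0.16 (quasi-likelihood, TMM, filterByExpr with a minimum count of 10, Benjamini-Hochberg over 17564 genes) in R 4.3.3, calling genes whose adjusted p was below 0.05 and whose log2 change exceeded 1.5 either way, and DESeq2 1.42.0 was the alternative. Adjusted p-values in the text without a tool named are from edgeR. Each SE is the absolute log2 difference divided by the square root of the F statistic of that edgeR test. With 2 libraries per cell type the p-values rest on the spread between these libraries, drawn for each gene toward a trend over all genes. A permutation of 2 against 2 could not pass 0.05. Levels between genes were compared as CPM per kb of exon in the GENCODE annotation lifted to GRCh37, and hub names without a gene of the count table come from its transcripts. RNA libraries with the same replicate number showed little pairing (correlation of deviations 0.07). With 2 libraries per cell type this is a single value, since both pairs give the same number by construction. Copies of fragments were searched with minimap2 2.31-r1302. Counting intervals and the floor of 3 reads cover counting error only. The tests were checked on simulated data.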

Additional observations from a re-analysis of the deposited data

How the results depend on the processing

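The number of hubs followed its definition, with 39 at a score of at least 15, 648 at 25 or more contacts, 245 at 35 or more, 603 when contacts were counted from either end and 1 when other fragments within 10 kb were merged, and 390 in cis only. With 1 replicate list in place of a merged one it was 274 to 331. The median distance was 514 kb at a score of at least 15, 219 kb at 35 or more, 200.006 kb from either end and 224 to 270 kb with 1 replicate list. The percentage shared by ESCs and NECs was 38.2 to 49.3 with 1 replicate list. Merging left 1 hub, HYDIN/SNORD112, and 49.1% of its unmerged calls were shared. The percentage called in both replicates was 70.2 at a score of at least 15 and 26.28 at 25 or more. It was 30.1 at 35 or more, 25.6 from either end and 39.9 at the 1 hub left by merging. The percentage of contacts with another bait was 37.7 at a score of at least 15 and 14.08 to 19.7 with 1 replicate list. At the 1 hub left by merging it was 3.68. Hub genes higher in NECs numbered 124 and lower 77 without a fold threshold, 3 and 1 at hubs with a score of at least 15, 99 and 42 at 25 or more, and 32 and 13 at 35 or more. The percentages of tested hub genes that rose in these last 3 definitions were 11.5, 17.6 and 16.6. Without 1 library the counts were 55 to 61 and 20 to 25. The replicate block gave 58 and 23, DESeq2 58 and 22, DESeq2 size factors 58 and 24, no filter on low counts 62 and 30, and protein-coding genes alone 49 and 18. PRAGMIN, not called, had a log2 fold change of -0.11 without NEC replicate 2 and of at most 0.23 without any other library. BEND6, not called, was past the threshold without NEC replicate 2, at -1.71. The causes of these differences were not tested.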

Other observations

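A gene-dense hub locus on chromosome 12 held 7 hubs over 412 kb, among them the baits of GAPDH, NOP2, ING4 and GPR162, with 11 to 56 merged contacts in ESCs and 23 to 41 in NECs. ING4, a tumour suppressor that reads histone methylation, had 273 and 314 reads in ESCs and 1055 and 969 in NECs and rose (edgeR adjusted p = 2.28e-04, log2 difference 1.71 with an SE of 0.15), as did GPR162, an orphan receptor gene, with 55 and 51 against 679 and 633 reads (edgeR adjusted p = 6.73e-05, 3.54 with an SE of 0.22).

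TXNIP, a regulator of redox and glucose metabolism, had 209 and 127 reads in ESCs and 6190 and 3226 in NECs, and IGFBP5, which binds insulin-like growth factors, had 208 and 372 against 13928 and 19687. Their baits had 23 and 22 merged contacts in ESCs and 38 and 34 in NECs. The genes of this paragraph, and ING4 and GPR162 above, were chosen after their values were seen. Expression of the other genes of the chromosome 12 locus is not given here.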
